A study of Schizosaccharomyces pombe with 4 samples.

Results

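The spliceosomal snRNA genes of the fission yeast Schizosaccharomyces pombe are the 5 genes snu1, snu2, snu4, snu5 and snu6, which encode the U1, U2, U4, U5 and U6 RNAs. They were taken by their annotated coordinates in the ASM294v3 assembly, and are 5 of 12645 annotated genes. A long read was given to the gene on its own strand that it overlapped most. In this way 41 of 33746 reads in the prp2-1 library at 37 °C came from the 5 genes, against 16 of 32176 in the wild-type library at 37 °C. At 30 °C the wild-type libraries gave 12 of 45318 reads in replicate 2 and 351 of 123756 in replicate 1.

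Nascent RNA was enriched from nuclei, freed of polyadenylated and ribosomal RNA, ligated to an adaptor at its 3′ end and read as single long cDNA molecules. The prp2-1 strain carries leu1.32 and the allele prp2-C387Y, was grown at 26 °C and then held at 37 °C for 2 h. The wild type at 37 °C was L972 h-, taken through the same shift. Replicate 2 of the wild type at 30 °C was SP286, which is h+ and has a marked wild-type prp5 (prp5::KanMx-prp5-WT), and replicate 1 was L972 h-. All cultures grew in YES medium, so mating type and the marked prp5 separate the 30 °C replicates. The wild type at 37 °C and prp2-1 have 1 library each, so a test between them compares those libraries and not the genotypes. prp2 encodes the large subunit of U2AF, the factor that recognises the 3′ end of introns.

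The spliceosome removes introns with small RNAs that pair with the pre-mRNA and with each other. U1 pairs with the 5′ splice site, U2 with the branch point, U5 holds the exons, and U4 carries U6 into the complex in an inactive form and then leaves it. U6 replaces U1 at the 5′ splice site and binds the catalytic metal ions. U1, U2, U4 and U5 are made by RNA polymerase II, are trimmed at the 3′ end from longer precursors and carry a ring of Sm proteins. U6 is made by RNA polymerase III, ends in a run of U and carries a ring of Lsm proteins. The U6 gene of S. pombe is interrupted by an intron of the mRNA type, so this spliceosomal RNA is also a substrate of the spliceosome.

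The sequences below are from the RefSeq assembly ASM294v3, on the gene's strand with T for U, and are shown because they hold the pairing letters and the read ends described later. In snu6 (chrI:2562261-2562419, minus strand, gene and 15 nt downstream) the capitals mark the 50-nt intron between exons of 46 and 48 nt. In snu1 (chrII:3020205-3020353, plus strand, whole gene) they mark ACTTAC at nt 1 to 6, the letters that pair with 5′ splice sites. In the first 60 nt of snu2 (chrI:959497-959556, minus strand) they mark GTAGTA at nt 34 to 39, the letters that pair with branch points.
snu6: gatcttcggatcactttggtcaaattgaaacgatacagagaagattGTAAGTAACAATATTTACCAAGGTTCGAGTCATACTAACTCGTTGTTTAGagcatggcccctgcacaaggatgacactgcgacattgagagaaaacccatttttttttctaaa
snu1: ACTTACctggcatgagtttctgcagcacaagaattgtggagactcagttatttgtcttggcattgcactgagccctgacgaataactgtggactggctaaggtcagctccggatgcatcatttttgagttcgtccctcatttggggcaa
snu2: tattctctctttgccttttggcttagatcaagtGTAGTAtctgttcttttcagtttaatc

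The snu6 intron, at chrI:2562324-2562373, opens with GTAAGT, the reverse complement of the capitals in snu1. GTAAGT opened 1437 of 5190 annotated introns, or 27.7%. The snu6 intron also holds TACTAAC, the branch sequence of budding yeast introns, at nt 33 to 39, with 11 nt left to its end. TACTAAC was found in 643 of the 5190 introns, or 12.4%. The catalytic ACAGAGA of U6 lies at nt 35 to 41 of the gene, in exon 1 and 5 nt before the intron, and stood in the first 50 nt of 26 of the 12645 annotated genes, or 0.206%. Letters were searched on the transcribed strand only, and ACTTAC stood in the first 20 nt of 0.696% of the genes and GTAGTA in the first 50 nt of 1.35%.

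The libraries differed in ways that bear on short RNAs. The median span of a read was 771 nt in prp2-1 and 890 nt in the wild type at 37 °C, against 436 nt in replicate 2 and 256 nt in replicate 1 at 30 °C. Reads of snoRNA genes, another class of short stable RNA, made up 11.4% of prp2-1, 8.31% of the wild type at 37 °C, 11.4% of replicate 2 and 27.5% of replicate 1. Gaps in the reads lay on annotated introns in 87.7% to 93.7% of cases. Both 37 °C libraries came from the same 6 sequencing cells and shared 3769 read names, each name standing for 1 consensus read that is listed at several places. Of the snRNA reads, 17 of 41 in prp2-1 and 1 of 16 in the wild type at 37 °C had such a repeated name. Over all reads the share was 20.1% in prp2-1 and 16.2% in the wild type at 37 °C, and over snoRNA reads 36.6% in prp2-1 and 33.1% in the wild type. For 9 of the 17 the name was also in the other 37 °C library. At 30 °C 0 reads had one. How reads of the shared cells were assigned to the 2 libraries is not given in the sources used here, and this bears on each value in which the 37 °C libraries are compared. The members' levels, extended reads and splicing at 37 °C are given below both with reads of repeated names and without them.

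**Figure D1:**
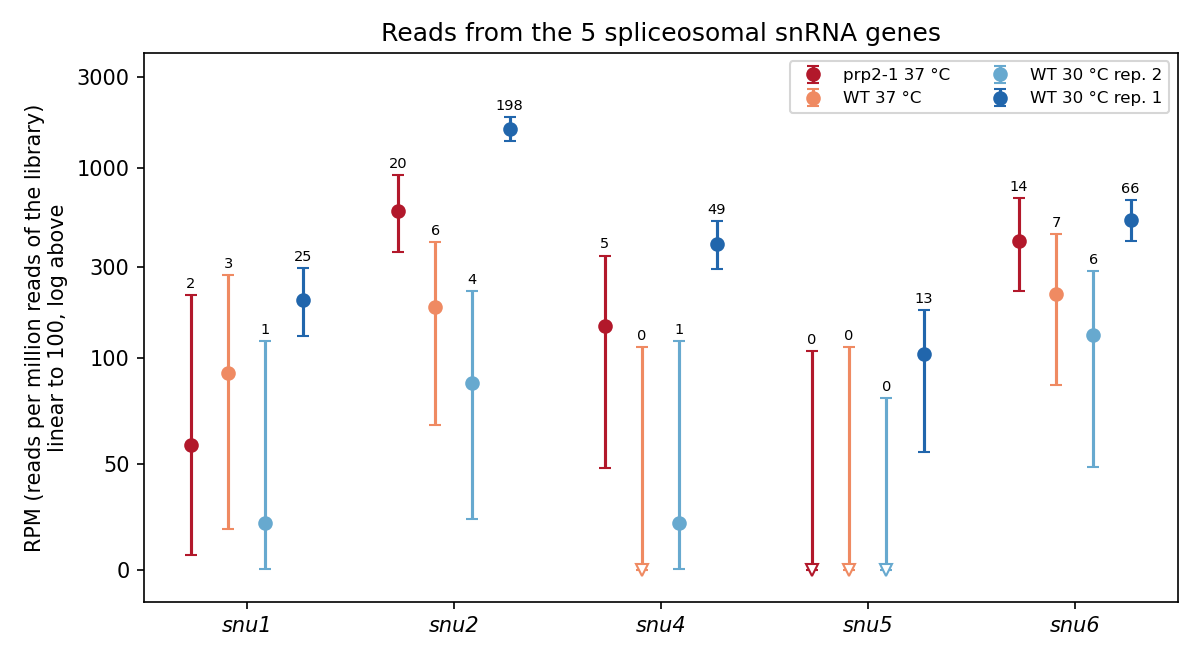
Reads of the 5 snRNA genes per 1000000 reads of the library (RPM, vertical axis, linear to 100 and logarithmic above), with 95% exact Poisson intervals and the number of reads above each. Open triangles mark genes with 0 reads. Replicate 1 at 30 °C lies highest for each gene, from 105 RPM for snu5 to 1600 for snu2, and snu5 was read in no other library.

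The snRNAs were a small part of each library, and their summed share of all reads was highest in replicate 1 at 30 °C. It was 1215 reads per 1000000 reads of the library (RPM) in prp2-1 and 497 in the wild type at 37 °C, against 265 in replicate 2 and 2836 in replicate 1. Without reads of repeated names it was 890 RPM in prp2-1 and 556 in the wild type at 37 °C. Set against snoRNA reads, there were 1.07 snRNA reads per 100 in prp2-1, 0.598 in the wild type at 37 °C, 0.232 in replicate 2 and 1.03 in replicate 1. The share in prp2-1 and in replicate 1 was thus close on this scale, and replicate 2 stayed lowest. Without reads of repeated names prp2-1 held 24 snRNA and 2430 snoRNA reads, and the wild type at 37 °C 15 and 1790. The 37 °C libraries were then closer to each other on this scale. Among reads of up to 300 nt, repeated names kept, prp2-1 held 5667 snRNA reads per 1000000 and the wild type at 37 °C 2855. Replicate 2 held 775 and replicate 1 4867, so prp2-1 stood highest among short reads. All intervals given here cover counting error only, since copies made by PCR cannot be told from separate molecules. The 198 snu2 reads of replicate 1 held 79 distinct alignments, and its 66 snu6 reads held 35. In these bulk libraries less RNA per cell and fewer cells that hold it cannot be told apart.

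U1, the RNA that first meets the 5′ splice site, was read rarely. snu1 had 2 reads (59.3 RPM) in prp2-1, 3 reads (93.2) in the wild type at 37 °C, 1 read (22.1) in replicate 2 and 25 reads (202) in replicate 1. The 95% exact Poisson intervals of the first 3 libraries overlapped, from 0.559 to 272 RPM. Those of prp2-1 and the wild type at 37 °C also overlapped that of replicate 1 (131 to 298 RPM).

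snu2 was the most read of the 5 genes in prp2-1 and in replicate 1. It had 20 reads (593 RPM, 95% exact Poisson interval 362 to 915) in prp2-1 and 6 reads (187, 68.4 to 406) in the wild type at 37 °C. Replicate 2 at 30 °C held 4 reads (88.3, 24.1 to 226) and replicate 1 held 198 (1600, 1385 to 1839). Replicate 1 therefore stood above the others with no overlap of intervals, and the 30 °C mean of 844 ± 1069 RPM (SD, n = 2) had an error larger than itself.

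U4, which chaperones U6, was read 5 times (148 RPM) in prp2-1 and 0 times in the wild type at 37 °C, which allows up to 93.2 RPM. snu4 had 1 read (22.1 RPM) in replicate 2 and 49 reads (396, 95% exact Poisson interval 293 to 524) in replicate 1. snu5, whose RNA aligns the exons, had 0 reads in prp2-1, in the wild type at 37 °C and in replicate 2, which allow up to 88.9, 93.2 and 66.2 RPM, and 13 reads (105 RPM) in replicate 1. Its level in replicate 1 lies close to the limits of both 37 °C libraries and above that of replicate 2, and the tests against replicate 1, given below, did not pass after adjustment.

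U6, the RNA at the catalytic centre, was read in every library. It had 14 reads (415 RPM, 95% exact Poisson interval 227 to 696) in prp2-1 and 7 reads (218, 87.5 to 448) in the wild type at 37 °C. It had 6 reads (132, 48.6 to 288) in replicate 2 and 66 reads (533, 413 to 679) in replicate 1. The intervals overlapped for every pair of libraries except replicate 1 and replicate 2. The level in replicate 1 was 4.03 times that in replicate 2 for snu6, 9.16 times for snu1, 17.9 times for snu4 and 18.1 times for snu2, and snu5, with 0 reads in replicate 2, has no such ratio.

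Per 100 nt of gene, which sets genes of different length side by side, replicate 1 gave 856 RPM for snu2, 370 for snu6, 312 for snu4, 136 for snu1 and 87.5 for snu5. Neighbours in this order were not all separate. The intervals of RPM, which are not scaled to gene length, overlapped between snu6 and snu4, snu4 and snu1, and snu1 and snu5. In prp2-1 the order was the same, while snu6 stood before snu2 in the wild type at 37 °C and in replicate 2, where both rested on 7 reads or fewer.

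Between prp2-1 and the wild type at 37 °C no snRNA gene passed the test. Reads per gene were compared with Fisher's exact test, two-sided, for genes with at least 10 reads in the 2 libraries together, with Benjamini-Hochberg adjustment over all genes tested and a threshold of 0.05. snu2 was 3.18 times as frequent in prp2-1 (95% interval 1.28 to 7.91, Fisher's exact p = 0.00985, adjusted p = 0.142). snu6 was 1.91 times as frequent in prp2-1 (0.770 to 4.73, Fisher's exact adjusted p = 0.614). Thus 0 of 2 members tested were called, with 4.07% of the 1522 genes tested called, 62 in all, and 215 at an unadjusted p under 0.05. Without reads of repeated names snu2 kept 15 reads (556 RPM) in prp2-1 and 6 (222) in the wild type, a ratio of 2.5 (Fisher's exact adjusted p = 0.369). snu6 then had 5 reads (185 RPM) in prp2-1, against 6 reads (222) in the wild type, so that the direction for snu6 depends on those reads. In prp2-1 snu1 then had 1 read and snu4 had 3, while in the wild type snu1 kept 3 and snu4 had 0. For comparison, the U3 snoRNA genes snu3 and snu32 passed, with reads in prp2-1 at 1.59 and 1.52 times the wild type (Fisher's exact test, adjusted p = 0.0127 and 0.0319). Of 42 snoRNA genes tested, 7 were called higher in prp2-1 and 0 lower. Without reads of repeated names the calls of snu3 and snu32 were lost, at 1.44 and 1.48 times the wild type (Fisher's exact adjusted p = 0.159 and 0.144). Then 4 of 39 snoRNA genes were called, each higher in prp2-1, beside 3.4% of 1281 genes. The signal recognition particle RNA srp7 (2.29 times, Fisher's exact adjusted p = 0.544), the RNase P RNA rrk1 (2.22 times, 0.745) and the RNase MRP RNA mrp1 (1.14 times, 1) did not pass.

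Between the wild types at 37 °C and 30 °C the result depended on the 30 °C replicate. By their read names the 37 °C libraries were run in 2016, replicate 1 in 2013 and 2014 and replicate 2 in 2015. Temperature, preculture, run year, read span and library differ together here and cannot be told apart. The median log2 ratio over all genes tested was -0.12 for prp2-1 over the wild type at 37 °C, 0.87 for the wild type at 37 °C over replicate 1, 0.25 for it over replicate 2, and 0.65 for replicate 2 over replicate 1, so the members' ratios below 1 stand against genes that were mostly higher. Against replicate 1, 2 of 5 members tested were called, both lower at 37 °C, with 28.6% of 2377 genes called. snu2 stood at 0.117 times replicate 1 (log2 ratio -3.10, 95% interval 0.0517 to 0.263, Fisher's exact adjusted p = 1.4e-11). snu4 had 0 reads at 37 °C against 49 (Fisher's exact adjusted p = 0.000336). The snu4 level of replicate 1 was 4.25 times the limit of 3 reads at 37 °C. That value leaves out the counting error of the 49 reads. snu6 stood at 0.408 times replicate 1 (Fisher's exact adjusted p = 0.0656) and did not pass, nor did snu1 (adjusted p = 0.409) or snu5 (adjusted p = 0.186). Against replicate 2, 0 of 2 members tested were called, with 11% of 1834 genes called. There snu2 was 2.11 times (0.596 to 7.49) and snu6 1.64 times (0.552 to 4.89) as frequent at 37 °C, so both intervals held 1. Among other stable RNAs the direction at 37 °C was mixed. Of 43 snoRNA genes tested against replicate 2, 21 were called higher at 37 °C and 16 lower, with a median log2 ratio of 0.605. Of 51 tested against replicate 1, 10 were called higher and 22 lower, with a median of -1.23. The RNAs chosen for comparison, snu3, snu32, srp7, rrk1, mrp1 and ter1, each had a ratio below 1 against either replicate. Against replicate 2, where the snu2 and snu6 ratios were above 1, snu3 stood at 0.39 times (Fisher's exact adjusted p = 4.84e-17), snu32 at 0.304 times (2.82e-31), srp7 at 0.261 times (0.0349) and rrk1 at 0.192 times (0.0242), each called. mrp1, at 0.414 times (Fisher's exact adjusted p = 0.315), and the telomerase RNA ter1, at 0.470 times (0.714), were not. Against replicate 1, snu3 at 0.0891 times and snu32 at 0.0311 times were called, srp7 stood at 0.0438 times, rrk1 at 0.0353 times and mrp1 at 0.127 times replicate 1, each called (Fisher's exact adjusted p = 2.13e-08 or lower), while ter1 at 0.444 times was not (adjusted p = 0.409).

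The 30 °C replicates also differed from each other. In replicate 2 against replicate 1, 4 of 5 members tested were called, each lower in replicate 2, with 16.4% of 2574 genes called. The ratios were 0.109 for snu1 (Fisher's exact adjusted p = 0.0414), 0.0552 for snu2 (5.72e-20), 0.0557 for snu4 (0.000146) and 0.248 for snu6 (0.00226). snu5, with 0 reads against 13, did not pass (Fisher's exact p = 0.0262, adjusted p = 0.113). Of 50 snoRNA genes tested 30 were called lower in replicate 2 and 8 higher, whereas over all genes 319 were called higher in replicate 2 and 103 lower. srp7, rrk1 and mrp1 were called lower in replicate 2 as well, at 0.168, 0.184 and 0.307 times replicate 1 (Fisher's exact adjusted p = 3.2e-06 or lower), and ter1 was not (0.945 times, adjusted p = 1). Strain, run year, sequencing cells, read span and library differ together between these replicates and cannot be told apart.

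Within replicate 1 the snRNA reads were unevenly spread over its 6 sequencing cells. The cells were divided after their values were seen, by the median span of their reads: 2 cells at 134 nt, and 4 cells at 321 to 328 nt. The 2 cells of short reads held 6261 RPM of snRNA reads, against 1653 in the 4 others. snu4 gave 44 of its 49 reads in the short cells, snu5 10 of 13, snu1 17 of 25 and snu6 46 of 66, and snu2, the longest of the 5 at 187 nt, gave 82 of 198 (41.4%). These 2 cells held 25.7% of all reads of replicate 1, so each of the 5 genes was more frequent in them, snu2 at 2580 RPM against 1261. With the 4 longer cells alone replicate 1 had 1261 RPM of snu2, 217 of snu6, 87.0 of snu1, 54.4 of snu4 and 32.6 of snu5. Each of these but snu2 lay within the interval of the wild type at 37 °C, and snu2 lay above the intervals of the other libraries. With these 4 cells in place of all 6, snu2 was still called lower in the wild type at 37 °C (Fisher's exact adjusted p = 7.55e-08) and in replicate 2 (9.49e-14). The call for snu6 between the replicates was lost (Fisher's exact adjusted p = 0.714), its difference between the wild type at 37 °C and replicate 1 was 0.0912 RPM, and snu4 had too few reads to test. In replicate 2 the values by cell rest on few reads. The cell with a median of 724 nt held 1 snRNA read (47.1 RPM). Those with 273 and 266 nt held 2 reads (226 RPM) and 9 reads (590 RPM). Whether the size of the molecules loaded set these levels was not tested.

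Few genes for the proteins that work with these RNAs had enough reads to test. A list held 50 genes for Sm and Lsm rings, snRNP proteins, U6 recycling and snRNA 3′ ends. Of these, 8 could be tested between prp2-1 and the wild type at 37 °C and 0 were called, beside 4.07% of 1522 genes. Without reads of repeated names it was 0 of 6, beside 3.4% of 1281 genes. spp42, the Prp8 protein at the centre of the U5 particle, had 948 RPM in prp2-1 and 870 in the wild type (Fisher's exact adjusted p = 0.991). dis3, the catalytic subunit of the exosome that trims RNA 3′ ends, had 385 RPM in prp2-1 and 124 in the wild type (Fisher's exact adjusted p = 0.348). prp2 itself had 4 reads in prp2-1 and 7 in the wild type at 37 °C, and the aligned blocks hold no bases, so the allele could not be read. Against replicate 1 the wild type at 37 °C had 3 of 19 called, all higher at 37 °C: prp2, spp42 and brr2, the helicase that unwinds U4 from U6. Over all genes 28.6% were called there, 559 of 681 of them higher at 37 °C. In that comparison the median log2 ratio of the 19 was 1.03, beside 0.87 over all genes tested. Against replicate 2, 0 of 8 were called, beside 11% of all genes. Replicate 2 against replicate 1 gave 1 of 22, spp42, higher in replicate 2, beside 16.4% of all genes.

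Genes whose reads over the 4 libraries were most like each member were ranked by the distance of their log2 shares, each gene centred on its own mean, over the 4 libraries and 289 or 290 genes with at least 100 reads. The nearest to snu2 was atp9, a mitochondrial gene, at a distance of 0.557 (42, 19, 13 and 398 reads in prp2-1, the wild type at 37 °C, replicate 2 and replicate 1). The nearest to snu4 was snu2 at 1.65, where the snu4 value of the wild type at 37 °C rests on the 0.5 reads added to its 0. No neighbour is given for snu5, since its values in 3 of the 4 libraries would be set by those 0.5 reads. snu6 lay nearest to mre11 at 0.275, and snu1 to SPNCRNA.7266 at 0.528. With 4 libraries such likeness is a description of their composition.

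The next question was whether the reads ended at the mature 3′ end of each RNA or ran past it, as a precursor would. Reads that passed the annotated end by over 10 nt were called extended, and the sequences around 3 of these ends follow. In snu2 (chrI:959305-959389, minus strand, last 20 nt and 65 nt downstream) and snu5 (chrII:3236867-3237016, plus strand, gene and 30 nt downstream) capitals mark bases at which a read ended. In snu4 (chrII:467429-467508, minus strand, last 20 nt and 60 nt downstream) capitals mark first bases of separate reads that began downstream.
snu2 end: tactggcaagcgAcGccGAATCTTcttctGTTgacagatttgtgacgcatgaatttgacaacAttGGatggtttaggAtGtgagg
snu5: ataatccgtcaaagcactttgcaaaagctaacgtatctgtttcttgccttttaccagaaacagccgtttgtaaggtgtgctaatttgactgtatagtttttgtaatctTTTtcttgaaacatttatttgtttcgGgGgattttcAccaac
snu4 end: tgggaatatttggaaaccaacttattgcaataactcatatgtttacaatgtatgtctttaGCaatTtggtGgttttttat

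Most snRNA reads ended within a few nt of the annotated 3′ end, and each gene had its own most frequent place. For snu1, 1 of 2 reads in prp2-1, 3 of 3 in the wild type at 37 °C, 1 of 1 in replicate 2 and 19 of 25 in replicate 1 ended within 1 nt of the annotated end. snu2 did so in 18 of 20 reads of prp2-1, 3 of 6 of the wild type at 37 °C, 2 of 4 of replicate 2 and 170 of 198 of replicate 1, and 136 reads of replicate 1 ended on the very base. snu4 did so in 5 of 5 reads of prp2-1, 1 of 1 of replicate 2 and 45 of 49 of replicate 1, with 1 nt past the end as the most frequent place. None of the 31 snu1 reads was extended.

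**Figure D2:**
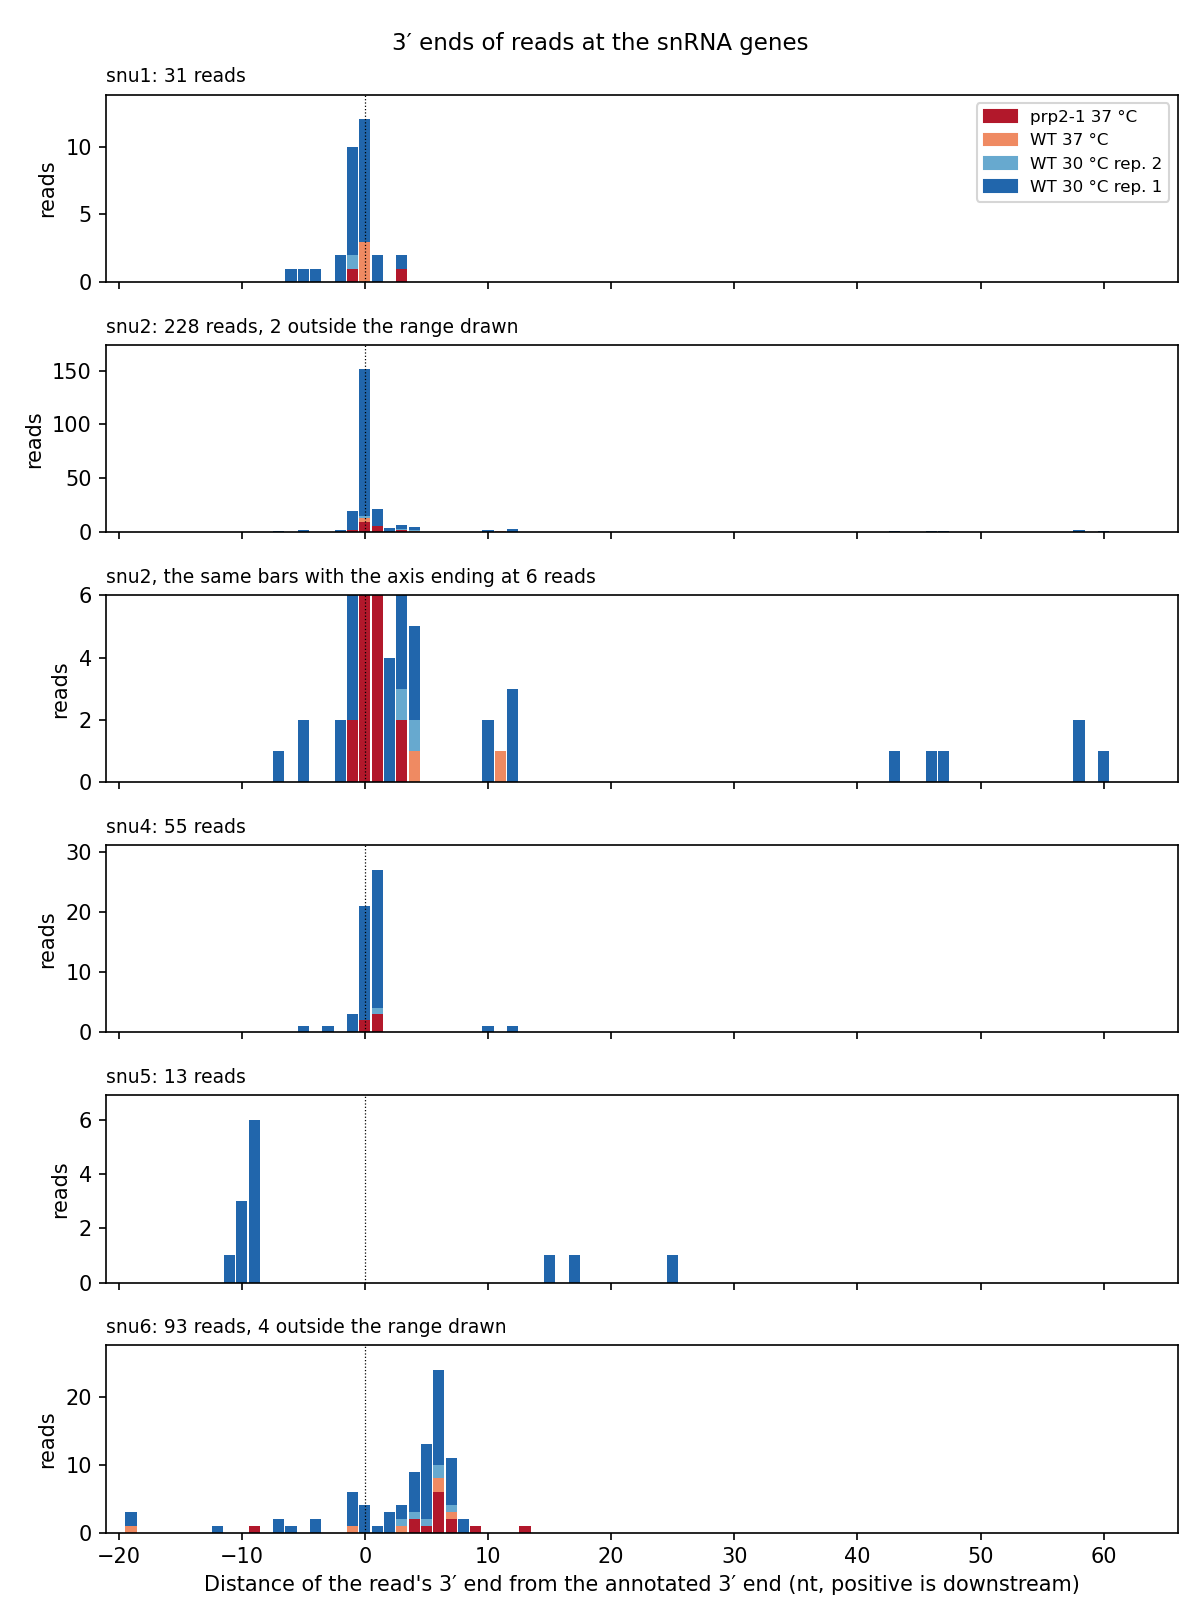
Number of reads by the distance of their 3′ end from the annotated 3′ end (horizontal axis, nt, positive downstream), stacked by library, with a second panel for snu2 whose axis ends at 6 reads. Ends pile up at 0 for snu1 and snu2, at 0 and 1 for snu4, at -9 for snu5 and at 6 for snu6, and snu2 has further ends between 43 and 60 nt.

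For snu5 and snu6 the reads ended at another base than the annotation gives. Of the 13 snu5 reads, all of replicate 1, 10 ended 9 to 11 nt inside the annotated end, at the run of T in capitals, and 0 ended within 1 nt of it. The other 3 ended 15, 17 and 25 nt past it, and no read ended between these groups. For snu6 the most frequent end lay 6 nt past the annotated one in each library. It lay within a run of 9 T at 2 to 10 nt downstream, where 12 of 14 reads ended in prp2-1, 4 of 7 in the wild type at 37 °C, 6 of 6 in replicate 2 and 45 of 66 in replicate 1. Without reads of repeated names it was 4 of 5 in prp2-1 and 3 of 6 in the wild type at 37 °C. A run of 8 T in the 15 nt after the gene end was found at 87 of 12642 annotated genes, or 0.688%. Inside a run of 1 base the place of an end is the aligner's choice and less sure.

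Extended reads were few, and most were of snu2, which held 228 of the 420 snRNA reads. By share snu5 stood higher in replicate 1, with 3 of 13 reads (23.1%, 95% Wilson interval 8.18 to 50.3). Its interval overlapped that of snu2. In that library 1.13% of snoRNA reads and 6.2% of protein-coding reads were extended, beside 3.99% of snRNA reads. In replicate 1, 10 of 198 snu2 reads were extended (5.05%, 95% Wilson interval 2.77 to 9.05). The share was 8.86% over its 79 distinct alignments and 21.3% over the 47 reads that began within 10 nt of the annotated 5′ end. Of these, 3 ended 12 nt past the end, 1 each at 43, 46, 47 and 60 nt, 2 at 58 nt and 1 at 206 nt. In the wild type at 37 °C, 2 of 6 were extended, by 11 and 319 nt, in prp2-1 0 of 20, or 0 of 15 without repeated names, and in replicate 2 0 of 4. The 20 reads of prp2-1 allow a share of up to 15%, so a share like that of replicate 1 was not detectable there. In S. pombe the U2 precursor is known to be cut downstream of the mature end by the RNase III enzyme Pac1 and then trimmed. The other extended reads were the 3 of snu5, 1 of 49 of snu4 in replicate 1, by 12 nt, and 1 of 14 of snu6 in prp2-1, by 13 nt. That snu6 read had a repeated name, and without such reads 0 of 5 were extended. These counts depend on the limit of 10 nt. With a limit of 20 nt the extended share of snu5 was 7.69% and those of snu4 and snu6 were 0, and with one of 5 nt, inside the T run of snu6, the snu6 share was 71.4% in prp2-1, 42.9% in the wild type at 37 °C, 50% in replicate 2 and 34.8% in replicate 1.

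The extended snu2 reads were also the complete ones at the 5′ end. All 10 of replicate 1 began 1 nt inside the annotated 5′ end (100%, 95% Wilson interval 72.3 to 100), whereas 37 of the 188 other snu2 reads began within 10 nt of it (19.7%, 14.6 to 26.0). The difference was 80.3 points (95% Newcombe interval 51.9 to 85.4). The 10 reads came from 7 distinct alignments in 6 sequencing cells. Both extended snu2 reads of the wild type at 37 °C and all 3 of snu5 also began within 10 nt of the annotated start, and so did the 1 of snu4. The extended snu6 read of prp2-1 went the other way and began 32 nt inside the gene, whereas 11 of the 13 other snu6 reads of prp2-1 began within 10 nt of the start. This was looked for after the read ends had been seen and was not tested.

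No member had 10 reads or more in both libraries of any of the 4 planned comparisons, so the extended share was compared at a minimum of 5. Between prp2-1 and the wild type at 37 °C the share of snu2 differed by -33.3 points (95% Newcombe interval -70.0 to -4.71, Fisher's exact p = 0.0462, adjusted p = 1). That of snu6 differed by 7.14 points (-28.8 to 31.5, Fisher's exact adjusted p = 1), and 0.0865% of 1156 genes were called. Between the wild type at 37 °C and replicate 1 snu2 differed by 28.3 points (4.29 to 65, Fisher's exact p = 0.0418, adjusted p = 0.619) and snu6 had 0 extended reads in both, with 1.65% of 1580 genes called. In the other comparisons only snu6 could be tested and 0 of its reads were extended in any of these libraries, with 0.9% of genes called between the wild type at 37 °C and replicate 2 and 2.03% between replicates 2 and 1. In total 0 members were called.

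Downstream of snu4 there were reads that began just past the gene and did not include it. The count was made after the positions had been seen. Within 100 nt of the snu4 end 10 reads began, 1 in prp2-1, 0 in the wild type at 37 °C, 1 in replicate 2 and 8 in replicate 1. Of these, 6 began 41 nt past the end, 2 at 42 nt, 1 at 46 nt and 1 at 51 nt, the capitals of the snu4 end above. They ended 213 to 544 nt past the snu4 end, where no gene is annotated on that strand, and held no gap. For snu2, 1 such read began at 42 nt in replicate 1 and 1 at 60 nt in the wild type at 37 °C, while 6 extended snu2 reads of replicate 1 ended 43 to 60 nt past the gene. For snu6 1 read of replicate 2 began 13 nt past the end, and snu1 and snu5 had none.

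Reads that ran into the snRNA genes from upstream neighbours were also rare. In prp2-1 1 read of gpt2, whose end lies 211 nt before snu1, began 804 nt upstream of snu1 and ended 3 nt past the snu1 end, covering the whole snRNA. It was counted for gpt2. In the wild type at 37 °C 1 read of SPBC428.12C reached 5 nt into snu4. A single antisense read was found over the 5 genes, at snu1 in replicate 1.

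The 5′ ends often lay inside the gene, with snu6 as the exception. snu6 reads began within 10 nt of the annotated 5′ end in 11 of 14 cases in prp2-1, 7 of 7 in the wild type at 37 °C, 6 of 6 in replicate 2 and 64 of 66 in replicate 1. For snu2 it was 11 of 20 in prp2-1, 3 of 6 in the wild type at 37 °C, 3 of 4 in replicate 2 and 47 of 198 in replicate 1. The 95% Wilson intervals of snu2 in prp2-1 (34.2% to 74.2%) and replicate 1 (18.4% to 30.1%) did not overlap. Instead, 72 of 198 snu2 reads of replicate 1 began 28 to 34 nt inside the gene, just before or at the capitals GTAGTA, against 0 of 20 in prp2-1, 2 of 6 in the wild type at 37 °C and 0 of 4 in replicate 2. In the 2 short cells of replicate 1 10 of 82 snu2 reads began near the annotated start, and in the 4 longer cells 37 of 116. snu1 had a like group at 27 to 30 nt with 7 of 25 reads of replicate 1, and snu4 at 16 to 18 nt with 9 of 49. These windows were chosen after the positions had been seen.

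**Figure D3:**
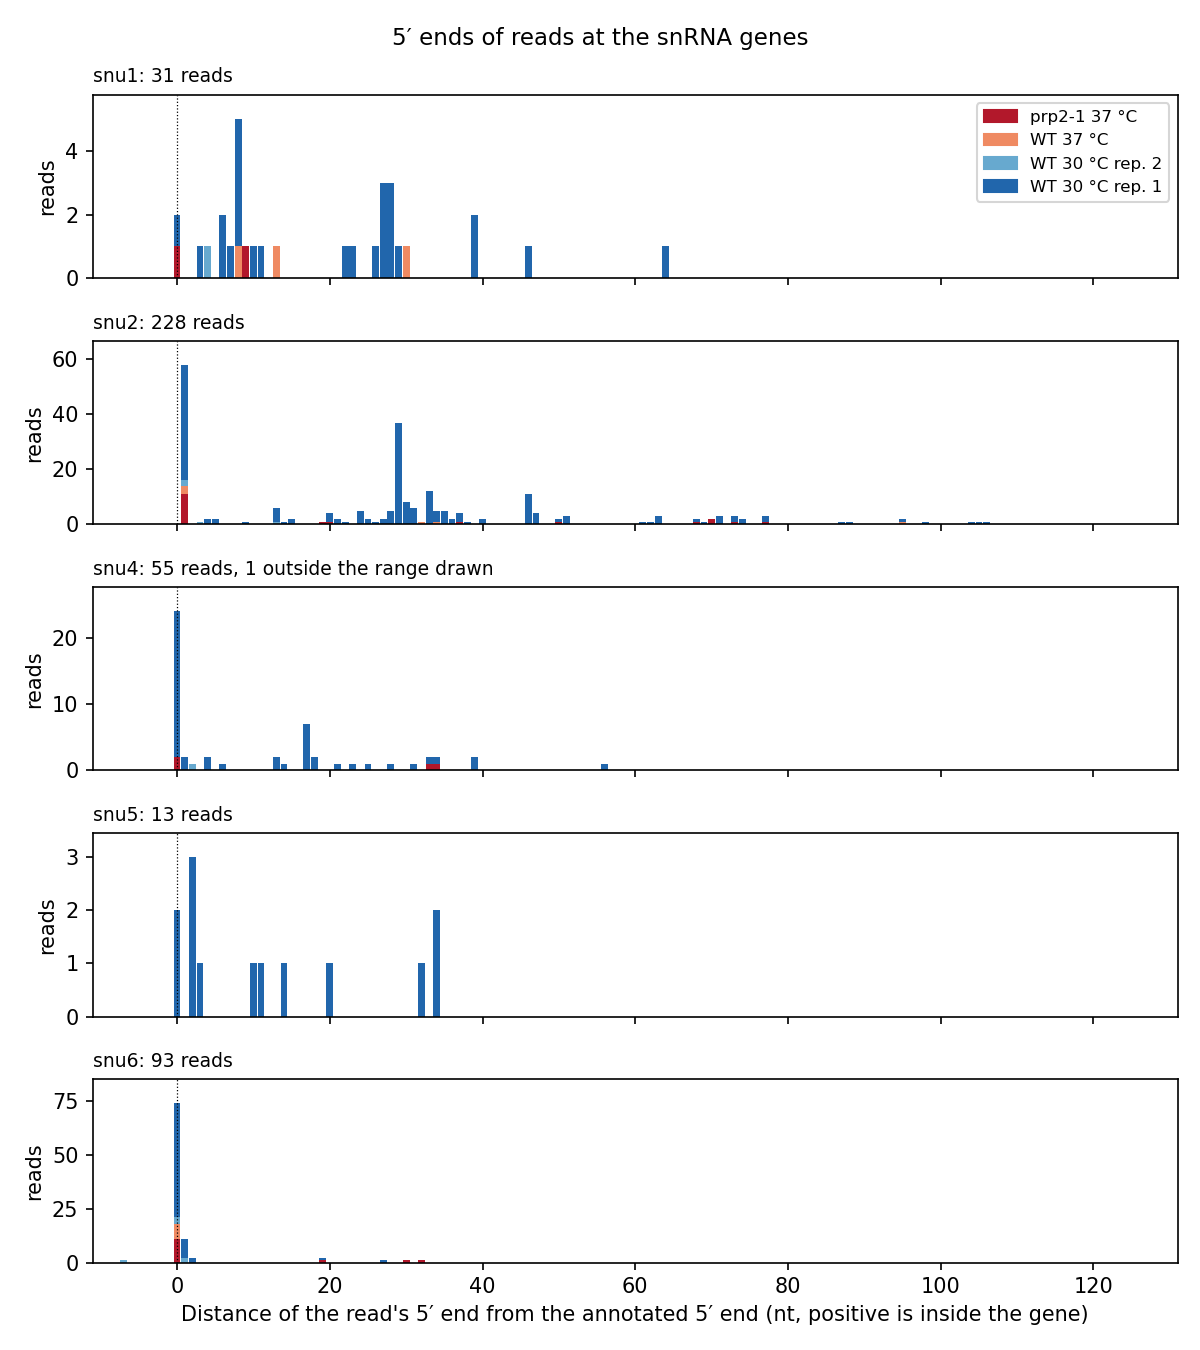
Number of reads by the distance of their 5′ end from the annotated 5′ end (horizontal axis, nt, positive inside the gene), stacked by library. snu6 reads begin mostly at 0, whereas snu2 has 1 group at 1 nt and another at 28 to 34 nt. The second is almost wholly of replicate 1, which holds 198 of the 228 snu2 reads. It held 72 of these 198, 2 of 6 reads in the wild type at 37 °C, 0 of 20 in prp2-1 and 0 of 4 in replicate 2.

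The last question was how often the intron of snu6 had been removed. A read was scored if it reached at least 10 nt past the intron on both sides, and it was spliced if a gap matched both splice sites within 5 nt. In prp2-1 3 of 14 scored reads were spliced (21.4%, 95% Wilson interval 7.57 to 47.6), against 5 of 6 in the wild type at 37 °C (83.3%, 43.7 to 97.0). At 30 °C 3 of 6 were spliced in replicate 2 (50%, 18.8 to 81.2) and 28 of 64 in replicate 1 (43.8%, 32.3 to 55.9). The prp2-1 library was lowest and the wild type at 37 °C highest, and the 30 °C mean was 46.9% ± 4.42 (SD, n = 2). Every read that crossed the intron was either spliced at the annotated sites or unspliced.

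**Figure D4:**
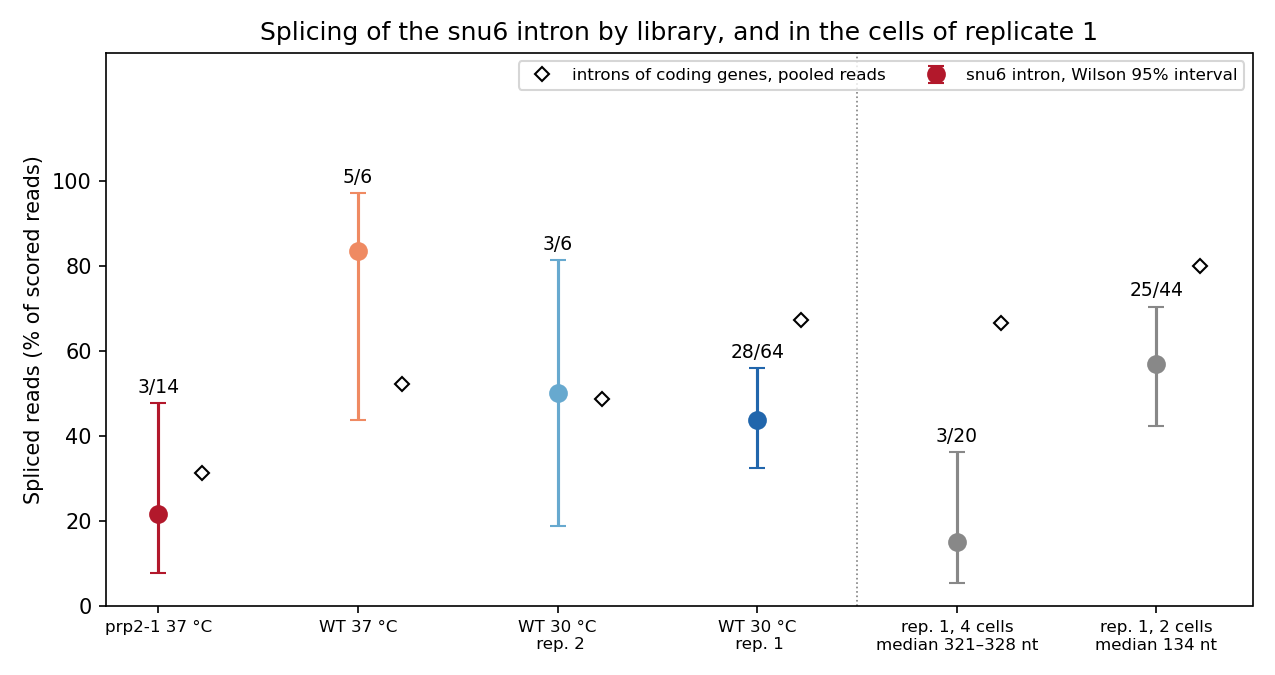
Percent of scored reads in which the snu6 intron was spliced (circles, 95% Wilson intervals, spliced and scored reads above), with the pooled percent over introns of coding genes beside each (diamonds). Left of the dotted line stand the 4 libraries, right of it the sequencing cells of replicate 1 by median read span. The prp2-1 library has 3 of 14 spliced and the wild type at 37 °C 5 of 6.

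The difference between prp2-1 and the wild type at 37 °C did not pass over all introns. It was -61.9 points (95% Newcombe interval -81.4 to -14.4). At the planned minimum of 10 scored reads in both libraries snu6 could not be tested. With a minimum of 5 Fisher's exact test gave p = 0.0181 and an adjusted p of 0.186 over 292 introns, of which 1.71% were called. Without reads of repeated names 1 of 5 was spliced in prp2-1 and 4 of 5 in the wild type at 37 °C. Both libraries shared sequencing cells. In prp2-1 the 3 spliced reads came from 2 cells and the 11 unspliced ones from all 6. In the wild type 4 of the 5 spliced reads came from 1 cell.

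For the other pairs of libraries the interval of the difference held 0. The wild type at 37 °C exceeded replicate 1 by 39.6 points (95% Newcombe interval -1.92 to 57.4, Fisher's exact p = 0.0931, adjusted p = 0.721), with 1.58% of introns called. It exceeded replicate 2 by 33.3 points (-17.2 to 67.4, Fisher's exact p = 0.545, adjusted p = 1), with 0.377% called. Replicate 2 exceeded replicate 1 by 6.25 points (-27.3 to 39.5, Fisher's exact p = 1, adjusted p = 1), with 11.3% called. prp2-1 differed from replicate 1 by -22.3 points (-40.8 to 6.24, Fisher's exact p = 0.144), a comparison added after the values had been seen. At the minimum of 10 scored reads its adjusted p was 0.216 by Fisher's exact test, with 45.8% of 72 introns called, all lower in prp2-1, and at a minimum of 5 it was 0.323, with 19.1% of 298 called. From replicate 2, also added then, prp2-1 differed by -28.6 points (-62.8 to 12.2, Fisher's exact p = 0.303, adjusted p = 0.707), with 0 of 216 introns called and 33 at an unadjusted p under 0.05.

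Introns of coding genes gave 31.1% spliced in prp2-1 and 52.1% in the wild type at 37 °C, and 48.5% in replicate 2 and 67.3% in replicate 1. The snu6 share was therefore below the coding share in prp2-1 and in replicate 1 and above it in the wild type at 37 °C and in replicate 2. In prp2-1 and replicate 2 and in the wild type at 37 °C the coding share lay inside the interval of snu6, and in replicate 1 it lay above it. Single introns with at least 10 reads were set beside the snu6 intron in each library. In prp2-1 78 of 108 had a higher spliced share than snu6 and 30 a lower one. In the wild type at 37 °C 20 of 145 were higher and 123 lower, where the snu6 share rests on 6 reads. In replicate 2 77 of 139 were higher and 56 lower, and in replicate 1 275 of 304 were higher and 29 lower.

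In replicate 1 the snu6 share also moved with the size of the reads in a cell. In the 2 cells with a median span of 134 nt 25 of 44 snu6 reads were spliced (56.8%, 95% Wilson interval 42.2 to 70.3). In the 4 cells with a median of 321 to 328 nt 3 of 20 were (15%, 5.24 to 36). The intervals did not overlap, and coding introns went the same way, with 79.9% spliced in the 2 cells and 66.4% in the 4. Full-length spliced snu6 reads had a median of 99 aligned nt in this library, and full-length unspliced ones 149. The share of prp2-1, 21.4%, was thus above the 15% of these 4 wild-type cells. Against the 4 cells alone the wild type at 37 °C stood 68.3 points higher. Whether read size sets the spliced share was not tested.

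Spliced and unspliced U6 reads had the same median 3′ end in prp2-1 and in replicate 1. In replicate 1 the median 3′ end lay 5 nt past the annotated end for both, and reads of both kinds that crossed the intron and did not end short lay between -7 and 8 nt. Of the spliced reads 25 ended within 10 nt of the annotated end and 3 ended short of it, and of the unspliced reads 35 and 1 (Fisher's exact p = 0.311). In prp2-1 the median was 6 nt for both, with 3 spliced and 10 unspliced reads within 10 nt, 1 unspliced read extended and 0 short. In the wild type at 37 °C the median was 3 nt over 5 spliced reads, 1 of which ended 19 nt short, and the 1 unspliced read ended at 7 nt. In replicate 2 the medians were 6 nt for 3 spliced and 5 nt for 3 unspliced reads. In these 3 libraries 0 or 1 read ended short, too few for a test of short ends to pass. 1 read of the wild type at 37 °C began at the annotated 5′ end and ended 98 nt before the annotated 3′ end, exactly on the last base of exon 1. It spans 46 nt, the length of exon 1, and 0 of the 92 other snu6 reads ended within 2 nt of that base.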

How the data were processed

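The files hold 1 line per aligned long read of a library, with chromosome, start, end, strand and aligned blocks, and the authors deposited these positions with no normalisation. The score column of the deposited files is 40 in every line and was not used. Reads were trimmed with cutadapt 1.8, per the submitters' processing notes. The aligner, the genome build, the way reads with poly(A) were removed and how reads of shared sequencing cells were assigned to the 37 °C libraries are not given in the sources used here, and ASM294v3 with its annotation was used. Depth ranged from 32176 to 123756 reads.

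Reads were given to the same-strand gene with the largest aligned overlap, and read ends were measured from the annotated ends. An unspliced read had at least 90% of the intron in aligned blocks and no gap of 20 nt or more. Shares have Wilson intervals, differences of shares Newcombe intervals and read levels exact Poisson intervals, all at 95%. A count of 0 was given the limit of 3 reads. Fisher's exact test (scipy 1.17.1) was run over all genes or introns in the 4 comparisons, with Benjamini-Hochberg adjustment. Shares of genes and introns were tested with at least 10 reads in both libraries, or 5 as an alternative. The text names each member, the nearest gene by likeness (0.5 reads added before the log2), snoRNA and other stable RNAs chosen for comparison, and listed snRNP genes. Calls were tested on simulated data. P-values measure differences between libraries, which may be technical. The members and gene lists were chosen with earlier results of these data known. Windows of read ends, letters searched and the division of replicate 1 by cell were chosen after the values were seen. Alternatives counted identical alignments once, left out repeated names, changed the scale, the minimum of reads and the windows.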

Additional observations from a re-analysis of the deposited data

How the results depend on the processing

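No paired analysis was possible because the libraries at 37 °C have no replicate number in their labels and no group pair shares 2 numbers. The number of genes whose reads differed between prp2-1 and the wild type at 37 °C was 62 of 1522 tested. It became 37 of 5837 with no minimum of reads and 3 of 105 with reads up to 300 nt alone. For the wild type at 37 °C over replicate 1 it was 681 of 2377, and became 339 of 2377 per protein-coding read and 1739 of 2377 per snoRNA read. It was 318 of 2365 with identical alignments counted once, 60 of 532 with reads up to 300 nt and 434 of 2237 with the 4 longer cells of replicate 1. For the wild type at 37 °C over replicate 2 it was 202 of 1834, and became 352 of 1834 per snoRNA read. It was 123 of 1819 with identical alignments counted once, 130 of 6679 with no minimum and 69 of 162 with short reads. For replicate 2 over replicate 1 it was 422 of 2574, and became 280 of 2574 per protein-coding read and 1694 of 2574 per snoRNA read. It was 197 of 2558 with identical alignments counted once, 133 of 695 with short reads and 238 of 2422 with the longer cells.

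The members' read levels, as differences per 1000000 reads, kept direction and side of the threshold in 73 of the 93 alternatives that could move them, where another minimum of reads could move the adjusted p alone. The uncalled snu6 difference of prp2-1 and the wild type at 37 °C became -37.1 without repeated names. The uncalled differences of the wild type at 37 °C over replicate 1 turned positive per snoRNA read (387 for snu1 and 678 for snu6, per 1000000 snoRNA reads), in short reads (223 and 415, per 1000000 short reads) and with the longer cells (6.25 and 0.0912). In short reads the calls of snu2 and snu4 in that comparison were lost (Fisher's exact adjusted p = 0.0883 and 0.454), and per snoRNA read that of snu4 (0.0643). The snu6 call between the replicates was lost with identical alignments counted once (Fisher's exact adjusted p = 0.138), per snoRNA read (0.342), in short reads (0.166) and with the longer cells (0.714), and that of snu1 with identical alignments counted once (0.0566), per snoRNA read (0.287), in short reads (0.247) and with no minimum (0.0987). The snu6 difference of the wild type at 37 °C over replicate 1 passed per protein-coding read (Fisher's exact adjusted p = 0.00298) and at 20 reads (0.0455). The cause of these changes was not tested.

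Genes called for extended reads were 1 of 470 tested between prp2-1 and the wild type at 37 °C, and 0 of 172 with complete 5′ ends. Over replicate 2 the wild type at 37 °C had 12 of 517. It had 5 of 493 with identical alignments counted once and 1 of 166 with complete 5′ ends. Replicate 2 over replicate 1 had 42 of 789, and 15 of 775 and 22 of 270 under these settings. Introns called between prp2-1 and the wild type at 37 °C were 9 of 68 tested. They were 0 of 45 without repeated names and 5 of 292 at a minimum of 5 reads. The wild type at 37 °C over replicate 2 had 2 of 58, and 1 of 265 at that minimum. The snu6 spliced difference of prp2-1 from the wild type at 37 °C stayed between -61.9 and -52.7 points in the alternatives run, and that of the wild type at 37 °C over replicate 1 became 68.3 points with the longer cells. With 20 scored reads between them, the 37 °C libraries leave that difference wide.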
